A study of Mus musculus with 10 samples.

Results

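The 10 genes described here make up the core of the MHC class II antigen presentation machinery of the mouse. They are the 3 class II chains of the H2-A and H2-E molecules (H2-Aa, H2-Ab1 and H2-Eb1), 5 chains of the molecules that control peptide loading (H2-DMa, H2-DMb1, H2-DMb2, H2-Oa and H2-Ob), the invariant chain Cd74 and the transactivator Ciita. They were chosen by gene symbol, and all 10 were found among the 55414 genes of the count table. Each passed the filter on low counts, which left 14669 genes.

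RNA was measured by sequencing of polyadenylated transcripts in 10 libraries of mouse splenic macrophages, enriched with magnetic beads coated with an antibody to F4/80. Of these, 5 came from mice labelled Fpr2KO, which lack the formyl peptide receptor Fpr2, through which myeloid cells sense formylated peptides and other ligands, and 5 came from wild-type mice labelled C57BL/6N (WT). The labels give no treatment, no age or sex, no strain background for the knockout line, and no statement that replicates were separate animals, so the p-values below refer to the spread among these libraries, part of which may be technical. The comparison asks how the RNA of these cells differs without Fpr2.

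MHC class II molecules carry peptides from endocytosed proteins to the cell surface, where CD4+ T cells read them. The invariant chain, encoded by Cd74, occupies the groove of newly made class II molecules until lysosomal proteases cut it down to a short fragment called CLIP. H2-DM (H2-DMa with H2-DMb1 or H2-DMb2) then exchanges CLIP for peptide, and H2-O (H2-Oa with H2-Ob) restrains H2-DM. Ciita does not bind DNA itself. It is recruited to the X and Y boxes of class II promoters by the RFX complex, CREB and NF-Y. In the spleen B cells, dendritic cells and activated macrophages all carry class II, whereas red pulp macrophages are known for low surface levels.

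The promoter windows of 6 members are printed to show where the letters of the X and Y boxes, the elements at which Ciita is recruited, occur in this gene set. A relation between these letters and the RNA levels was not tested. Each stretch has 60 bases of the gene's own strand in GRCm38.p6, from the RefSeq promoter table, and the capitals mark matches to a Y box (GATTGG), to an X box (AAC, then any 2 bases, then ATGATG) or to a cyclic AMP response element (TGACGTCA). The letters of the motifs were chosen after these windows had been read. The capitals mark matches on the gene's own strand only, whereas the counts over all promoter windows searched both strands.
H2-Eb1: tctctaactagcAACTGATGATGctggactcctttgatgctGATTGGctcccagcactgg
H2-DMb1: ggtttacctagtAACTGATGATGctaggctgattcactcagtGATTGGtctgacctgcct
H2-DMb2: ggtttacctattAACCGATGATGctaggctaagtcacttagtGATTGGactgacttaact
H2-Ob: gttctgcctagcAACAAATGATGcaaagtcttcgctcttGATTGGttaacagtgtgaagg
H2-Aa: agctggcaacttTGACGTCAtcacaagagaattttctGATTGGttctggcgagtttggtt
H2-Oa: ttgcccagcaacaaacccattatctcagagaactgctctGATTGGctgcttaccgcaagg

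The windows lie at chr17:34305766-34305825 on the plus strand for H2-Eb1, chr17:34153087-34153146 on the plus strand for H2-DMb1, chr17:34145116-34145175 on the plus strand for H2-DMb2, chr17:34238808-34238867 on the plus strand for H2-Ob, chr17:34287850-34287909 on the minus strand for H2-Aa and chr17:34092296-34092355 on the plus strand for H2-Oa. In H2-Eb1, H2-DMb1, H2-DMb2 and H2-Ob the X box match is followed by the Y box match after 18, 19, 19 and 16 bases. Among all 32851 promoter windows of 300 bases in the table, 0.137% hold the X box letters, 16.1% the Y box letters and 1.79% the response element. An X box followed by a Y box was found in 5 windows, of which 4 belong to these members. The fifth belongs to the olfactory receptor gene Olfr582. The H2-DMb1 and H2-DMb2 stretches share 51 of 60 bases. H2-DMa had a Y box match only at 199 bases before a listed start site. The table was matched for 7 of the 10 members, the others being H2-Ab1, Ciita and Cd74.

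H2-Aa, H2-Ab1, H2-Eb1 and the 5 loading chains lie side by side on chromosome 17, between 34092340 and 34344645 with H2-Eb2 and H2-Ea-ps. Cd74 lies on chromosome 18 at 60803848 to 60812652, and Ciita on chromosome 16 at 10480059 to 10528418. Fpr2 is also on chromosome 17, at 17887824 to 17893952, between 16.2 and 16.4 Mb from the 8 class II members there. It had 0 reads in each Fpr2KO library, against 19.2 to 33.6 CPM (counts scaled to a common library size, with TMM) in WT.

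Each library held between 15865820 and 19060188 counts. The 10 members together took 1.51% to 1.99% of the counts of an Fpr2KO library, against 1.48% to 1.90% in WT. The F4/80 gene Adgre1 was measured at 524.5 ± 63.4 CPM in Fpr2KO and 524.0 ± 60.1 CPM in WT, and all 20 red pulp macrophage markers were detected in every library. Over that list the median log2 fold change was 0.02, with 11 estimates above 0 and 9 below. By edgeR 0 of the 20 passed a false discovery rate (FDR) of 0.05 and 2 had an unadjusted p under 0.05. Over all genes tested 9.8% had such a p. The 2 markers, named after their values were seen, were Cd163 and Siglec1. Cd163 is a scavenger receptor (log2 fold change 0.46, SE 0.10, FDR = 0.135 by edgeR). For Cd163 every Fpr2KO library lay above every WT library, as for 0.825% of all genes tested. Siglec1 is a sialic acid-binding receptor (log2 fold change -0.63, SE 0.15, FDR = 0.185 by edgeR). It averaged 34.9 CPM in Fpr2KO and 53.9 CPM in WT. In the spleen Siglec1 is known mainly from marginal metallophilic macrophages, so its values are not a reading of red pulp macrophages. It was nevertheless kept in the list, and so in the median, the counts and the mean level of the list. All 20 markers of B cells and all 20 of dendritic cells were also detected in every library, and both cell types carry class II. Summed over the list, B cell markers reached 5234 to 7044 CPM in Fpr2KO and 4254 to 6295 CPM in WT. Dendritic cell markers reached 2156 to 2421 CPM in Fpr2KO and 2094 to 2608 CPM in WT. The largest terms of that sum were Wdfy4 (mean 829.4 CPM in Fpr2KO and 860 in WT) and Itgax (414.8 in Fpr2KO and 458.3 in WT). Such sums are not a measure of the share of a cell type. Monocyte, neutrophil and erythroid markers differed more between genotypes in their estimates. The median log2 fold change was -0.45 over 14 monocyte markers, -0.64 over 14 neutrophil markers and 0.99 over 15 erythroid markers, with 0 genes of these lists past the FDR and 8, 9 and 15 at an unadjusted p under 0.05 by edgeR. It was 0.20 over 15 T cell markers and 0.04 over 10 plasma cell markers. The part of these differences in the class II values was not tested. In such bulk samples fewer cells of a type and less RNA per cell cannot be told apart, and the share of the class II reads that came from macrophages cannot be read from these libraries.

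None of the 10 members passed an FDR of 0.05 between genotypes by edgeR, where 0.0682% of all genes tested passed (0.00682% higher and 0.0614% lower in Fpr2KO). No member had an unadjusted p under 0.05 either, against 9.80% of all genes. In the 10 members the groups overlapped in every case, whereas 0.825% of all genes had every Fpr2KO library above every WT library and 0.566% had every one below. The log2 fold changes ran from 0.00 to 0.19, 9 of 10 of them above 0, with a median of 0.09 beside 0.01 over all genes, of which 53.2% were above 0. Leaving out 1 library moved the count of genes past the FDR over all genes to between 8 and 51, with 26 without Fpr2KO replicate 2, 26 without WT replicate 4 and 51 without WT replicate 5, and the count of members was 0 in each.

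**Figure D1:**
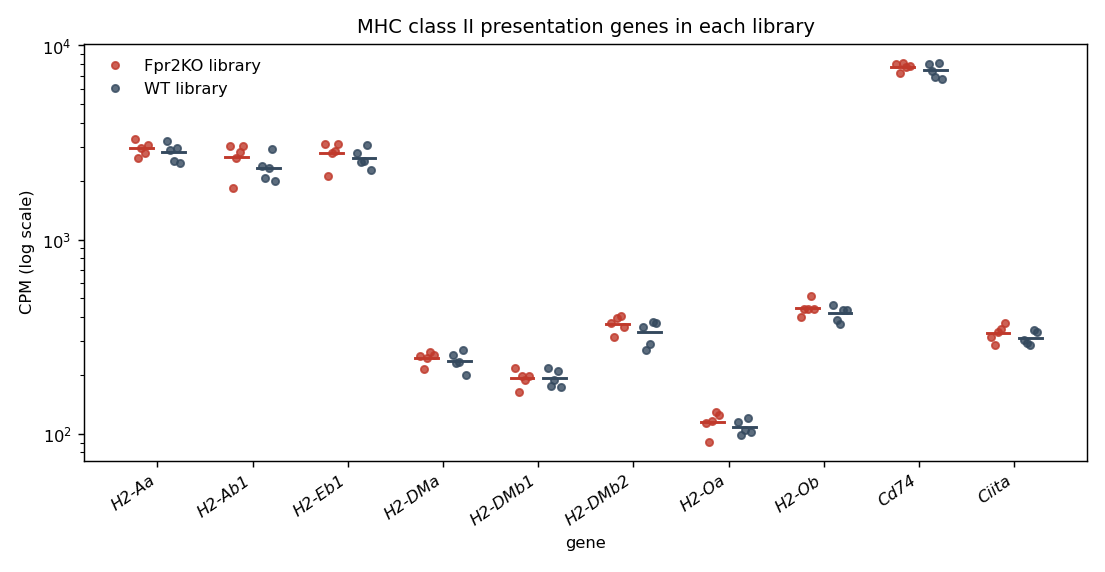
CPM on a log axis of the 10 class II presentation genes in each of 5 Fpr2KO (red) and 5 WT (dark) libraries, with bars at the group means. The groups overlap for each gene, and Cd74 stands highest at 6736 to 8129 CPM.

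The class II chains come first. H2-Aa encodes the alpha chain of the H2-A molecule. It was measured at 3296, 2627, 2950, 2804 and 3061 CPM in Fpr2KO replicates 1 to 5, against 3207, 2893, 2542, 2961 and 2475 CPM in WT replicates 1 to 5. The values of the genotypes were interleaved, and the highest library of each group was its replicate 1 (log2 fold change 0.07, SE 0.09, FDR = 0.842 by edgeR).

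H2-Ab1, the beta chain that pairs with H2-Aa, had 3019, 1840, 2633, 2836 and 3029 CPM in Fpr2KO replicates 1 to 5, against 2399, 2071, 2335, 2919 and 1992 CPM in WT. The estimate was the largest of the 10 members, at a log2 fold change of 0.19 (SE 0.14, 95% interval -0.13 to 0.51, FDR = 0.676 by edgeR). Fpr2KO replicate 2 was the lowest of all 10 libraries and WT replicate 4 lay with the high Fpr2KO libraries. Without Fpr2KO replicate 2 the log2 fold change was 0.29, and the smallest FDR of any member in that fit was 0.224 by edgeR.

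H2-Eb1 encodes the beta chain of the H2-E molecule. Mice of the C57BL/6 background make no H2-E at the surface, because the partner gene carries a deletion in its promoter, and the annotation lists that partner as the polymorphic pseudogene H2-Ea-ps. H2-Eb1 was nevertheless abundant, at 3116, 2138, 2779, 2844 and 3093 CPM in Fpr2KO replicates 1 to 5, against 2785, 2502, 2539, 3065 and 2271 CPM in WT (log2 fold change 0.09, SE 0.11, FDR = 0.825 by edgeR). H2-Ea-ps had 6, 2, 5, 5 and 7 reads in Fpr2KO and 6, 4, 2, 1 and 3 reads in WT, and was not tested. The reads of H2-Ea-ps were thus few in both genotypes, beside 35272 to 62589 reads of H2-Eb1 in Fpr2KO libraries and 40004 to 53669 in WT libraries.

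Cd74 was the most abundant member. It had 8017, 7182, 8129, 7749 and 7809 CPM in Fpr2KO replicates 1 to 5, against 8050, 7418, 6899, 8112 and 6736 CPM in WT. The spread within a group was small, at 4.72% of the mean in Fpr2KO and 8.53% in WT, and the log2 fold change was 0.06 (SE 0.08, 95% interval -0.13 to 0.25, FDR = 0.825 by edgeR). Ciita, the regulator of the whole set, was measured at 314.6, 286.1, 333.7, 346.4 and 370.2 CPM in Fpr2KO replicates 1 to 5, against 302.7, 293.1, 286.8, 341.9 and 332.3 CPM in WT. Its log2 fold change was 0.08 (SE 0.09, 95% interval -0.12 to 0.29, FDR = 0.768 by edgeR), and the lowest library was in Fpr2KO and the highest too.

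**Figure D2:**
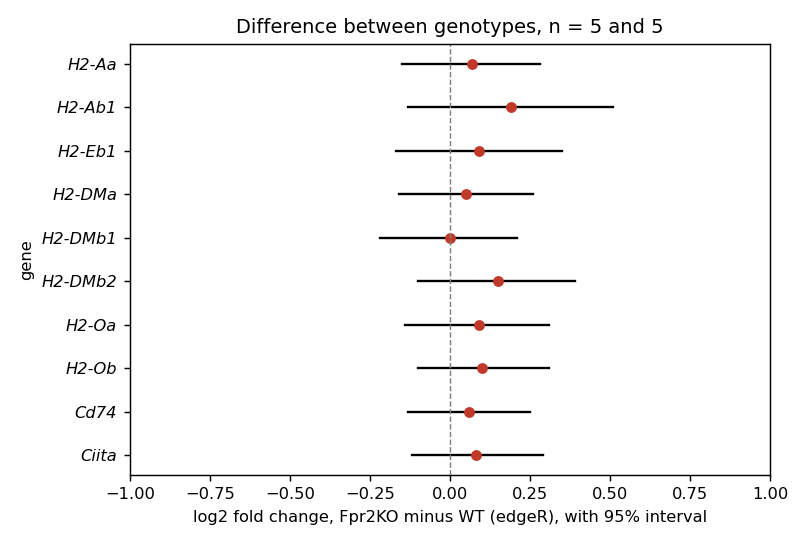
Log2 fold change (Fpr2KO minus WT) of each member with its 95% interval from the SE of edgeR, n = 5 and 5 libraries. Each interval includes 0, and the widest upper bound is that of H2-Ab1 at 0.51.

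The peptide loading chains were measured at lower levels. H2-DMa, the alpha chain of H2-DM, averaged 246.1 ± 18.6 CPM in Fpr2KO and 238.0 ± 25.4 CPM in WT (SD, n = 5 each). H2-DMb1 encodes one of the beta chains of H2-DM. It averaged 193.4 ± 19.6 CPM in Fpr2KO and 193.8 ± 19.5 CPM in WT, the smallest difference among the members (log2 fold change 0.00, SE 0.09, 95% interval -0.22 to 0.21).

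H2-DMb2 encodes the other beta chain of H2-DM. It had 369.9, 315.0, 394.9, 403.0 and 356.3 CPM in Fpr2KO replicates 1 to 5, against 355.2, 270.4, 289.5, 378.1 and 369.6 CPM in WT (log2 fold change 0.15, SE 0.11, FDR = 0.678 by edgeR). WT replicates 2 and 3 lay below all Fpr2KO libraries, and the other WT libraries lay among them. Of the 31-base sequences of H2-DMb1, 31.4% also occur in H2-DMb2. Of those of H2-DMb2, 29.7% occur in H2-DMb1 and 36.6% in any other annotated gene. The counting could thus have split or dropped reads between these copies.

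H2-Oa, the alpha chain of the H2-O inhibitor of peptide loading, averaged 114.8 ± 14.6 CPM in Fpr2KO and 108.2 ± 9.12 CPM in WT (SD, n = 5 each). Its partner H2-Ob had 400.6, 441.3, 437.3, 514.0 and 440.2 CPM in Fpr2KO replicates 1 to 5, against 462.1, 386.2, 366.9, 432.6 and 432.5 CPM in WT (log2 fold change 0.10, SE 0.09, FDR = 0.723 by edgeR). The highest H2-Ob library was Fpr2KO replicate 4, and the second highest was WT replicate 1. Some members overlap genes on the other strand: H2-Eb1 (Gm20513), H2-DMa (Brd2, CR974462.4 and Gm20493), H2-Oa (BC051537) and Ciita (Dexi). H2-DMa and Cd74 also overlap a gene on their own strand (CR974462.3 and Mir5107). No source used here gives the strand setting of the counting, so reads of such partners cannot be told apart.

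Levels of the members were compared per kilobase of annotated exon. Cd74 led with 4632 ± 218 CPM per kb in Fpr2KO and 4433 ± 378 CPM per kb in WT, followed by H2-Eb1 with 1437 ± 203 in Fpr2KO and 1354 ± 156 in WT. H2-Ab1 had 1040 ± 192 CPM per kb in Fpr2KO and 912.5 ± 142 in WT, and H2-Aa had 776.1 ± 66.8 in Fpr2KO and 741.3 ± 80.2 in WT (SD, n = 5 each). The ranges of H2-Ab1 and H2-Aa overlapped in both genotypes, and those of H2-Eb1 and H2-Ab1 overlapped in Fpr2KO, at 1100 to 1603 for H2-Eb1 and 716.7 to 1180 for H2-Ab1, but not in WT, at 1168 to 1576 for H2-Eb1 and 775.7 to 1137 for H2-Ab1.

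H2-DMb2 followed with 210.5 ± 20.02 CPM per kb in Fpr2KO and 190.4 ± 28.1 in WT, and H2-DMb1 with 115.1 ± 11.6 in Fpr2KO and 115.3 ± 11.6 in WT. H2-Ob, H2-Oa and H2-DMa formed a group whose ranges overlapped, between 62.4 and 95.5 CPM per kb in Fpr2KO and between 58.4 and 85.9 in WT. Ciita was lowest, with 34.6 ± 3.34 CPM per kb in Fpr2KO and 32.6 ± 2.56 in WT. The order of the genes was the same in both genotypes, and it depended on the length used. With the median length of the coding transcripts, Cd74 stayed first and Ciita last in both genotypes. The chains then ran H2-Aa (3017 CPM per kb in Fpr2KO and 2882 in WT), H2-Ab1 (2544 in Fpr2KO and 2232 in WT) and H2-Eb1 (1674 in Fpr2KO and 1577 in WT). H2-Ob (237.9 in Fpr2KO and 221.5 in WT) came next after H2-DMb2 (258.3 in Fpr2KO and 233.5 in WT).

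Ratios of 2 members within a library, which do not depend on the library size, were compared next. The H2-A and H2-E beta chains were close to equal in reads: the log2 ratio of H2-Eb1 to H2-Ab1 was 0.07 ± 0.08 in Fpr2KO and 0.17 ± 0.08 in WT (SD, n = 5 each). The difference of -0.10 (SE 0.05) did not pass an exact two-sided permutation test over all assignments of the libraries to 2 groups of 5 (p = 0.103, adjusted p = 0.555 over 7 ratios). The values were 0.05, 0.22, 0.08, 0.00 and 0.03 in Fpr2KO replicates 1 to 5, against 0.22, 0.27, 0.12, 0.07 and 0.19 in WT, so that Fpr2KO replicate 2 lay among the WT libraries.

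The use of the H2-DM beta chains gave the largest difference of the 7 ratios. H2-DMb2 had 1.70, 1.93, 1.99, 2.13 and 1.80 reads for each read of H2-DMb1 in Fpr2KO replicates 1 to 5, against 1.64, 1.53, 1.53, 1.79 and 2.11 in WT. The log2 ratio differed by 0.16 (SE 0.10, exact permutation p = 0.159, adjusted p = 0.555), with WT replicate 5 as high as the highest Fpr2KO libraries. Reads from sequence shared by these genes could have been split or dropped, which limits this ratio.

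The read ratio of H2-Oa to H2-DMa, a single chain each of H2-O and H2-DM, was -1.11 ± 0.09 on the log2 scale in Fpr2KO and -1.13 ± 0.10 in WT. It is not corrected for gene length. Per kilobase of exon H2-Oa stood above H2-DMa, at 81.6 against 71.4 CPM in Fpr2KO and 76.9 against 69.0 in WT. With the coding length it stood below, at 105.5 against 148.4 in Fpr2KO and 99.4 against 143.5 in WT. The log2 read ratio of Cd74 to H2-Aa was 1.40 ± 0.08 in Fpr2KO and 1.41 ± 0.06 in WT (difference 0.00, SE 0.04). Ciita to H2-Aa was -3.16 ± 0.15 in Fpr2KO and -3.17 ± 0.19 in WT (SD, n = 5 each). H2-Ob to H2-Oa (difference 0.02, SE 0.10) and H2-Ab1 to H2-Aa (difference 0.11, SE 0.13) did not differ beyond their spread either. The smallest exact p that 5 against 5 libraries allow is 0.00794.

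**Figure D3:**
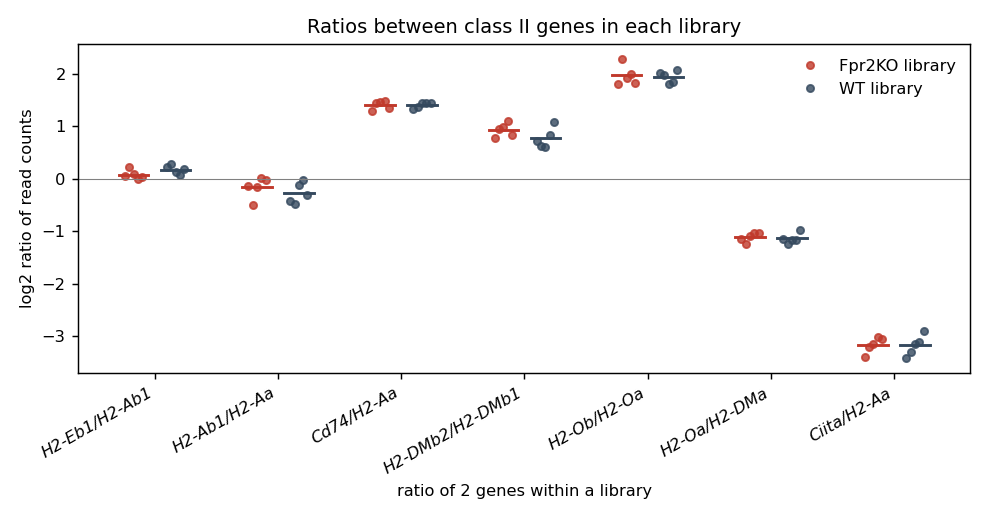
Log2 ratio of the read counts of 2 members within each library, for 5 Fpr2KO (red) and 5 WT (dark) libraries, with bars at the group means. The groups overlap for each of the 7 ratios, and the widest gap between means is that of H2-DMb2 to H2-DMb1 at 0.16.

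Most members moved together from library to library, H2-Ob the least. After the group means of log2 CPM were subtracted, all 45 pairs of members had a positive Pearson's r over the 10 libraries, with a median of 0.65, and 12 pairs were above 0.8. These values are a description: the points share library size and cell makeup. Pairs of other genes were not examined. Genes outside the set reached a mean r of up to 0.76 with the members, the highest among 11334 candidates ranked on these same libraries. Whether the shared movement is particular to the members was not tested. The closest pair was H2-Ab1 with H2-Eb1 (r = 0.98), followed by H2-Eb1 with H2-DMb1 (0.91), H2-Ab1 with H2-Oa (0.90) and H2-Aa with Cd74 (0.88). The loosest was H2-Aa with H2-Ob (0.04), and H2-Ob also had only 0.07 with H2-Eb1 and 0.09 with each of H2-Ab1 and H2-DMb1. Among Fpr2KO libraries, replicate 2 was the lowest for 9 of the 10 members, H2-Ob being the exception. Among WT libraries, replicate 4 was the highest for 7 members and replicate 5 the lowest for 6.

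**Figure D4:**
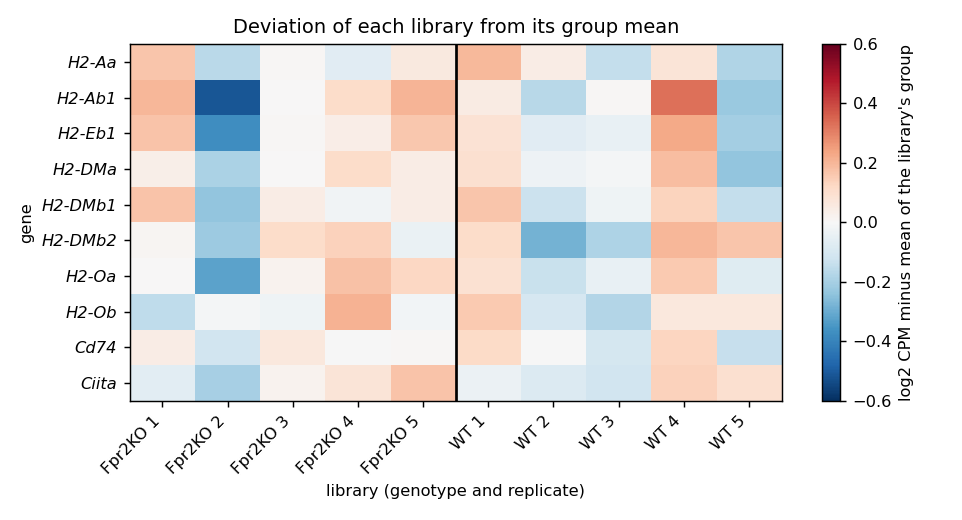
Deviation of each library from the mean of its own group, in log2 CPM, for the 10 members (rows) in 5 Fpr2KO and 5 WT libraries (columns). Fpr2KO replicate 2 is below its group mean for most members, and H2-Ob and H2-DMb2 differ in pattern from H2-Aa.

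H2-DMb2 and H2-Ob had the highest correlations of the 10 members with the level of B cell markers. H2-DMb2 had Pearson's r = 0.85 with the mean log2 CPM of the B cell list across the 10 libraries after subtracting group means (permutation p = 0.00332, adjusted p = 0.0573 over 30 relations), and Spearman's rho = 0.84 (permutation p = 0.00366, adjusted p = 0.110). H2-Ob had r = 0.75 (permutation p = 0.0146, adjusted p = 0.146) and rho = 0.77 (permutation p = 0.0124, adjusted p = 0.185). Without the 2 libraries farthest from the median of the B cell level, r was 0.84 for H2-DMb2 and 0.86 for H2-Ob. It was also 0.74 for Ciita on those 8 libraries, against 0.32 over all 10 (permutation p = 0.357, adjusted p = 0.956; rho = 0.36, permutation p = 0.313, adjusted p = 0.803). None of these relations passed the adjustment over the 30 relations of 10 members with 3 marker lists.

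H2-Ob also ran against the red pulp macrophage list, with r = -0.82 (permutation p = 0.00382, adjusted p = 0.0573) and rho = -0.65 (permutation p = 0.0487, adjusted p = 0.292), and r was -0.52 without the 2 farthest libraries. H2-Aa and Cd74 had their highest r with dendritic cell markers, at 0.66 (permutation p = 0.0366, adjusted p = 0.219) and 0.68 (permutation p = 0.0305, adjusted p = 0.219), with rho = 0.70 for each (permutation p = 0.0296 and 0.0312, adjusted p = 0.234 for both). Without the 2 farthest libraries r was 0.47 for H2-Aa and 0.52 for Cd74. H2-Ab1 and H2-Eb1 had r = 0.06 and -0.01 with B cell markers (permutation p = 0.883 and 0.971, adjusted p = 0.971 for both; rho = -0.05 and -0.01).

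**Figure D5:**
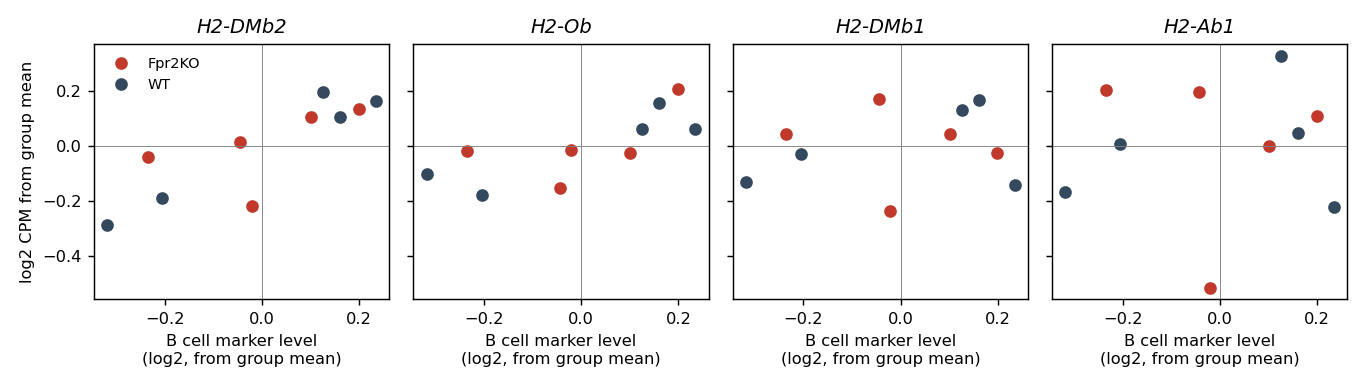
Log2 CPM of 4 members against the mean log2 CPM of 20 B cell markers, each as the deviation from the group mean, in 5 Fpr2KO (red) and 5 WT (dark) libraries. H2-DMb2 (r = 0.85) and H2-Ob (r = 0.75) rise with the B cell level, whereas H2-Ab1 (r = 0.06) shows no such trend.

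The B cell list itself had higher estimates in Fpr2KO for 20 of 20 genes, with a median log2 fold change of 0.18. By edgeR 0 of them passed the FDR and 4 had an unadjusted p under 0.05. Over all genes tested 53.2% of estimates were above 0 and 9.8% had such a p. With the B cell level as a covariate, the log2 fold change of H2-DMb2 was 0.012, against 0.15 without it, and that of H2-Ob was 0.013, against 0.10. With that covariate H2-Ab1 was at 0.18 and H2-Aa at 0.07, against 0.19 and 0.07 without it, and the members ran from -0.03 to 0.18. H2-DMb2 and H2-Ob had been picked by their correlation with this same B cell level, whose genes had higher estimates in Fpr2KO. A smaller estimate with the covariate was thus built into that choice. The part of B cells in the class II values was not tested. Flt3, a defining dendritic cell marker, averaged 132.6 ± 19.6 CPM in Fpr2KO and 131.4 ± 13.1 CPM in WT (SD, n = 5 each). Over the 20 dendritic cell markers 12 estimates were above 0 and 8 below, from -0.24 for Clec4a4 to 0.72 for Snx22, with a median of 0.02, and 0 passed the FDR by edgeR, while these 2 had an unadjusted p under 0.05. With the dendritic cell level as a covariate the members ran from -0.02 to 0.17.

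Outside the members, the rest of the pathway was read from 54 listed genes, of which 52 were tested. By edgeR 0 of the 52 passed the FDR in either direction, where 0.0682% of all genes tested passed. An unadjusted p under 0.05 was found for 6 of the 52, against 9.8% of all genes. Of the 52 estimates 20 were above 0, where 53.2% of all genes were above 0. The median log2 fold change was -0.04, beside 0.01 over all genes. DESeq2 gave 0 past the FDR as well. Among 9 factors of the class II promoter, 5 had estimates above 0. Nfyb, a subunit of the factor that binds the Y box, averaged 33.0 ± 1.81 CPM in Fpr2KO and 28.9 ± 2.77 CPM in WT (log2 fold change 0.19, SE 0.08, FDR = 0.492 by edgeR). Rfxank, a subunit of the RFX complex at the X box, averaged 19.2 ± 3.26 CPM in Fpr2KO and 17.2 ± 1.46 CPM in WT (log2 fold change 0.16, SE 0.12).

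Among 10 genes of lysosomal processing, 6 had estimates below 0, within -0.13 to 0.06. Ctss, the protease that trims the invariant chain in antigen-presenting cells, averaged 944.2 ± 103 CPM in Fpr2KO and 994.9 ± 64.5 CPM in WT (FDR = 0.803 by edgeR). Sppl2a, the intramembrane protease that removes the last fragment of the invariant chain, averaged 166.9 ± 32.4 CPM in Fpr2KO and 182.8 ± 11.5 CPM in WT (FDR = 0.722 by edgeR).

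Among 11 genes of turnover and trafficking, 8 had estimates below 0. Ap1s2, a subunit of an adaptor of clathrin-coated vesicles, had the smallest p of the pathway, with 58.7, 89.2, 65.0, 62.6 and 75.7 CPM in Fpr2KO replicates 1 to 5, against 91.1, 107.0, 104.2, 73.5 and 92.1 CPM in WT (log2 fold change -0.41, SE 0.12, FDR = 0.286 by edgeR). Fpr2KO replicates 2 and 5 lay above the lowest WT library. March8, a ubiquitin ligase of membrane proteins, averaged 45.1 ± 6.93 CPM in Fpr2KO and 36.2 ± 4.60 CPM in WT (log2 fold change 0.32, SE 0.12, FDR = 0.415 by edgeR).

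Of 14 genes listed around the regulation of Ciita, 11 had estimates below 0, where 53.2% of all genes tested were above 0. The list pools activating and repressing inputs, and not all of its genes act on Ciita directly. The count therefore gives no direction of the drive on Ciita. Ifngr1, the ligand-binding chain of the interferon gamma receptor, averaged 342.7 ± 37.9 CPM in Fpr2KO and 391.3 ± 16.99 CPM in WT (log2 fold change -0.19, SE 0.08, FDR = 0.488 by edgeR). Jak1, a kinase of that receptor, averaged 400.4 ± 38.3 CPM in Fpr2KO and 431.2 ± 19.7 CPM in WT (FDR = 0.687 by edgeR). Of 8 genes of costimulation, 7 were tested. Cd40 averaged 55.2 ± 6.07 CPM in Fpr2KO and 47.3 ± 4.79 CPM in WT (log2 fold change 0.22, SE 0.10, FDR = 0.473 by edgeR), and Cd80 30.5 ± 5.55 CPM in Fpr2KO and 35.6 ± 5.78 CPM in WT (log2 fold change -0.22, SE 0.13). H2-Eb2, a neighbour of H2-Eb1, averaged 105.6 ± 6.94 CPM in Fpr2KO and 102.0 ± 10.04 CPM in WT (SD, n = 5 each).

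The 9 other genes tested in the class II region, a set added after the data were seen, gave 0 past the FDR and 0 at an unadjusted p under 0.05 by edgeR. Their log2 fold changes ran from 0.02 for Brd2 to 1.66 for Gm20496, with a median of 0.16. The predicted genes Gm20496 (SE 0.76, FDR = 0.519 by edgeR) and Gm15821 (1.24, SE 0.73, FDR = 0.618 by edgeR) had the largest estimates, and Gm20496 the smallest p of the set. Psmb8 and Psmb9, subunits of the immunoproteasome, had estimates of 0.25 (SE 0.17) and 0.19 (SE 0.14) on the log2 scale. Tap1 and Tap2, the peptide transporter of class I presentation, had 0.06 (SE 0.10) and 0.16 (SE 0.16).

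The genes whose pattern over the 10 libraries was most like that of the members, by the mean Pearson's r with all 10 after subtracting group means, came from 11334 candidates. They were Rtl8c (mean r 0.76), Rrp12 (0.74), R3hdm4, Rnf43 and Fam189b (0.73 each), and Grcc10, Coq2, Rab10os, Slc25a11 and Commd4 (0.72 each). For Rrp12, which had the narrowest range of these leading genes, r ran from 0.59 to 0.84 over the members, and for Fam189b from 0.11 to 0.96. These are a description over 10 libraries, ranked from many genes.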

How the data were processed

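The authors deposited whole-number read counts for each Ensembl gene, with no normalisation. The submitters' processing notes name HTSeq 0.10.0, FastQC 0.10.1 and the builds mm10 and GRCm38. Neither these notes nor the labels give the aligner, strandedness, treatment of multiply matching reads or annotation version. GENCODE M21 gave symbols for 52133 of 55414 identifiers, and its positions are those printed. Per-kilobase levels used its exon lengths.

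In R 4.3.3 with edgeR 4.0.16, filterByExpr left 14669 genes, sizes were scaled by TMM, and Fpr2KO was compared with WT by glmQLFTest with robust fits, two-sided, with Benjamini-Hochberg adjustment over all genes tested. SEs are the log2 fold change over the square root of F. The 95% intervals use 8 degrees of freedom. Log2 CPM used a prior count of 2, ratios used counts plus 0.5, and correlations used 100000 permutations. The fit was tested on simulated data. Within a group, all 20 pairs of libraries differed by more than sampling noise (chi-square per degree of freedom 12.4 to 68.2).

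Members and gene lists were chosen with earlier results of these data known. By rule the genes named are the members, Fpr2, Adgre1 and Flt3, the 2 pathway genes of smallest p in each list, and the 10 genes most like the members. A further gene of this rule is not reported here. H2-Ea-ps, the other genes of the class II region and single markers were named outside the rule, after their values were seen. Alternatives were RLE and upper quartile scaling, other filters, DESeq2 1.42.0, limma 3.58.1 (voom), a replicate block, marker covariates and leaving out each library.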

Additional observations from a re-analysis of the deposited data

Results flagged for a closer look

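Among 63 groups of 5 libraries examined (members, ratios and the other genes named), 1 had a library far from the rest: Fpr2 in WT replicate 3, at 33.6 CPM against 19.2 to 21.7 CPM in the other WT libraries. Chance flags about 1 in 20 groups. No member and no ratio had such a library, Fpr2KO replicate 2 included.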

How the results depend on the processing

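0 members and 0 pathway genes passed the FDR of 0.05 under each alternative run, including DESeq2, limma voom and both covariates. Over all genes the count of 10 became 62 with no filter, 185 with DESeq2 and 64 with the replicate block, and ran from 8 to 51 when 1 library was left out (26 without Fpr2KO replicate 2 or WT replicate 4, 51 without WT replicate 5). The numbers are not shown to pair the libraries: deviations of same-numbered libraries correlated between -0.239 and 0.291, and 2 of 5 Fpr2KO libraries matched their own number best. 1 member reached an unadjusted p under 0.05 without Fpr2KO replicate 2, and 0 did in each of the other fits. With the block the members ran from 0.00 to 0.18 on the log2 scale, with a smallest adjusted p of 0.546 by edgeR. The sign of H2-DMb1 turned with upper quartile scaling (0.017) and, leaving out 1 library, between -0.058 and 0.043. H2-DMa then ran from -0.016 to 0.096, and the log2 ratio differences ran from -0.022 to 0.028 for Cd74 to H2-Aa, from -0.044 to 0.083 for Ciita to H2-Aa and from -0.054 to 0.062 for H2-Ob to H2-Oa. Correlations near 0 changed sign: with B cell markers, H2-Aa gave 0.058 and H2-Eb1 0.092 when group means were kept, and 0.056 and 0.120 with library totals. With red pulp macrophage markers, library totals gave 0.053 for H2-Aa, 0.103 for H2-DMa, 0.055 for Cd74 and 0.038 for Ciita. The cause was not tested. With 5 and 5 libraries the 95% interval was -0.13 to 0.25 for Cd74 and -0.13 to 0.51 for H2-Ab1, and each member's interval included 0.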
